A study of Mus musculus with 6 samples.

Results

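The BCL2 family decides whether a cell keeps its mitochondria intact or opens them and dies. Prosurvival members such as BCL2, BCL-XL and MCL1 bind and hold back the effectors BAX and BAK, which form pores in the outer mitochondrial membrane and release cytochrome c, the trigger of caspase activation. BH3-only members sense growth factor loss, DNA damage or stress and either occupy the prosurvival proteins or activate the effectors, and acute myeloid leukemia cells are known to depend on BCL2 and MCL1. Described here are 10 genes of this family, chosen by name with earlier results of these data known. They include the prosurvival genes Bcl2, Bcl2l1 (BCL-XL) and Mcl1 and the effector genes Bax and Bak1. The others are the BH3-only genes Bcl2l11 (BIM), Bbc3 (PUMA), Pmaip1 (NOXA), Bid and Bad. Of the 10, 9 were measured among 30743 genes, each by 1 probe set paired with that gene alone. Bax was not analysed here.

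The arrays compared 3 samples of Ppara -/- MLL-AF9 leukemia with 3 samples of Ppara +/+ MLL-AF9 leukemia. PPARA is a receptor in the nucleus that fatty acids activate and that switches on genes of their oxidation. Both genotypes came from a purchased mouse line that was backcrossed for 10 generations, and in both a mouse stem cell virus vector carried the MLL-AF9 fusion oncogene together with green fluorescent protein (GFP). RNA was taken from GFP-positive cells sorted from the marrow of secondary transplant recipients, so it came from transplanted leukemia in a host whose genotype, age and sex the labels do not state. The labels do not say whether replicates were separate primary leukemias or animals, and the p-values therefore measure the spread between these samples, which may be technical. Ppara -/- leukemia lacks PPARA throughout its development, so the comparison holds no acute loss of the receptor. Values are log2 signals, and a difference is Ppara -/- minus Ppara +/+.

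Ppara itself was at 5.29, 5.05 and 5.23 in the Ppara -/- samples, against 4.87, 5.19 and 5.18 in the Ppara +/+ samples. The groups overlapped (difference 0.11, SE 0.13; limma adjusted p = 0.997), all 6 values were close to the negative-control medians, and where in the gene the probes lie is not known, so this signal does not check the genotypes. The number of arrays limits the precision. Negative-control rows had medians of 4.63 to 4.81 on 4 arrays, while Ppara -/- replicate 2 (4.99) and Ppara +/+ replicate 1 (5.16) stood apart. The main results are given with and without this pair. The median over all genes was also lowest on the pair, at 5.25 and 5.16, against 5.35 to 5.4 on the rest. Among negative controls the pair stands apart in the median and not in the 95th percentile. The negative-control 95th percentile was 8.20 and 8.23 on the pair, 8.22 on Ppara +/+ replicate 3 and 7.91 to 8.01 on the rest. Of 9 measured markers of leukemia and progenitors 7 exceeded the 95th percentile of the negative controls (7.91 to 8.23) on all arrays. They were Ptprc, Mpo, Elane, Prtn3, Ctsg, Meis1 and Itgam. Of the other genes in that list, Spi1, Kit and Cd34, 1 was not measured and the rest exceeded that percentile on some arrays only. No measured marker of T cells, B cells, erythroid cells or megakaryocytes exceeded it on any array, and for NK cells and marrow stroma only Nkg7 and Pecam1 did. Monocyte and macrophage markers (9 of 10 measured) had list means of 7.70 to 7.96 in Ppara -/- and 8.33 to 8.62 in Ppara +/+ samples, with Ly6c2 and Cd68 above the negative-control percentile on all arrays and 4 markers above it on none. Of these 9 markers 8 were lower in Ppara -/- and 1 was higher (by 0.37), and 1 had a limma adjusted p under 0.05. Neutrophil markers (10 of 10) had list means of 10.01 to 10.19 in Ppara -/- and 9.57 to 10.13 in Ppara +/+ samples. In such bulk RNA fewer cells of a type and less RNA per cell cannot be told apart.

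Because the genotypes differ in a DNA-binding receptor, stretches just before annotated start sites of the genes were searched for its element. PPARA binds as a partner of RXR to AGGTCANAGGTCA, a direct repeat of AGGTCA. RefSeq windows of 250 bases before a start site (build GRCm38.p6) were at hand for 9 of the 10 genes, 15 windows in all, without Pmaip1, and the windows of Bbc3 overlap in part. For Bcl2l1, Mcl1 and Bbc3 every window lies within the annotated gene, before an internal start site. The stretch before the outermost start of these genes was not searched. On either strand AGGTCA was in 1 of the 15, a window of Bcl2l1, where 14% of all 32851 windows hold it, and the full repeat was in none of the 15 (0.0335% of all windows). TATAAA was in none of the 15 (12.4% of all windows), CCAAT was in 4 (33.8%) and the GC box GGGCGG in 10 (32.7%), covering 7 of the 9 genes. G and C made up 47.6% to 81.6% of the bases in these windows, with a median of 64.4%, against a median of 52.4% over all windows. These matches are a description of letters and show neither binding nor its absence. A pair of windows is printed 5′ to 3′ along the gene. That of Bcl2l1 at chr2:152828490-152828739 (minus strand) is the 1 window with AGGTCA, a single copy and not the full repeat. The copy is in capitals as the reverse complement, beginning 104 bases before the start site. That of Bcl2 at chr1:106714291-106714540 (minus strand) has its 7 GC boxes of either strand in capitals. It is printed since Bcl2 had the lowest p of the prosurvival genes.
Bcl2l1: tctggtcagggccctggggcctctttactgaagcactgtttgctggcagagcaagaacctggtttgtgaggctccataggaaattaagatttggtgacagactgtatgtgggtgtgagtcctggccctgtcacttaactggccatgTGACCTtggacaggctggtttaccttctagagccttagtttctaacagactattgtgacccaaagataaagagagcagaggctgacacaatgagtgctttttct
Bcl2: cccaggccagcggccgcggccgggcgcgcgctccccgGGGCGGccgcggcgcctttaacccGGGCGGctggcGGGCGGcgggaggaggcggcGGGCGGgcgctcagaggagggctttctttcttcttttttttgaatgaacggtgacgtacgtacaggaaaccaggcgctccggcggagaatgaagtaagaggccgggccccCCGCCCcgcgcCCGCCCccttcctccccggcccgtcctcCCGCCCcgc

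In Ppara -/- leukemia 0 of the 9 measured genes passed the test, where 0.117% of all genes tested did (limma, Benjamini-Hochberg adjusted p under 0.05). Pmaip1 was the 1 member with an unadjusted p under 0.05 and the 1 member whose genotypes did not overlap, while 5.74% of all genes had such a p (3.14% higher and 2.6% lower in Ppara -/-) and 8.74% did not overlap. Differences were positive in 5 members and negative in 4, with a median of 0.0067, beside a median of 0.02 over all genes. The signals of Mcl1, Bak1 and Pmaip1 exceeded the negative-control 95th percentile on all 6 arrays. Those of Bcl2, Bcl2l1, Bcl2l11, Bbc3, Bid and Bad lay under it on all 6, although above the negative-control median, so differences in these dim genes may be understated.

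**Figure D1:**
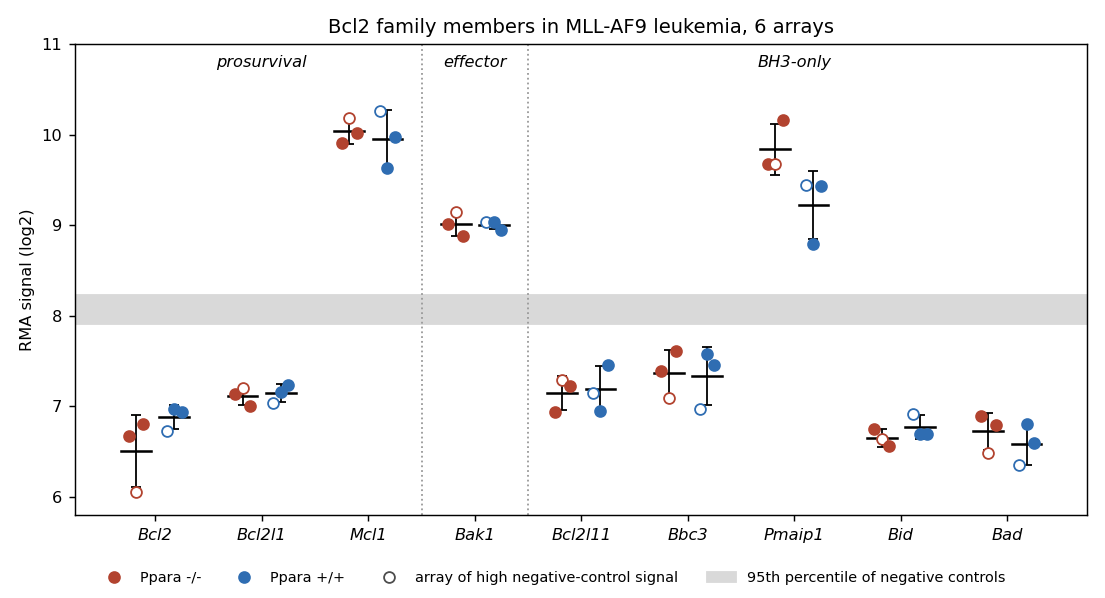
RMA signal (log2, vertical axis) of the 9 measured Bcl2 family genes on each array, with Ppara -/- in red and Ppara +/+ in blue. Bars are mean ± SD (n = 3), and open circles are the pair of arrays that stand apart in negative-control median. The grey band spans the negative-control 95th percentiles (7.91 to 8.23). Only Pmaip1 shows genotypes that do not overlap, with 9.67 to 10.16 in Ppara -/- and 8.79 to 9.44 in Ppara +/+ samples.

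Among the prosurvival genes Bcl2 differed most, and its groups overlapped. Bcl2, the founding member and the target of the drug venetoclax, was at 6.67, 6.05 and 6.80 in the Ppara -/- samples, against 6.73, 6.97 and 6.94 in the Ppara +/+ samples. Ppara -/- replicate 2 held the lowest value and only Ppara -/- replicate 3 reached into the other group. The difference was -0.37 (95% interval -0.81 to 0.06; limma adjusted p = 0.967; exact two-sided permutation p = 0.2, while 3 against 3 cannot give less than 0.1). Without Ppara -/- replicate 2 it was -0.15, and without both arrays that stand apart it was -0.22 (SE 0.09, limma adjusted p = 0.526). It was -0.52 with Ppara -/- replicate 3 left out (unadjusted p = 0.0273, limma adjusted p = 1.0) and -0.51 with the negative-control signal as a covariate (unadjusted p = 0.0076, limma adjusted p = 0.317), the only 2 of 16 other fits in which Bcl2 had an unadjusted p under 0.05.

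Bcl2l1, whose long product BCL-XL protects erythroid cells and platelets, was at 7.14, 7.20 and 7.0 in Ppara -/- leukemia, against 7.04, 7.16 and 7.24 in Ppara +/+ leukemia. No array stood out and the difference was -0.03, with an interval of -0.28 to 0.21 (a signal ratio between 0.825 and 1.16). Without both arrays that stand apart it was -0.13 (limma adjusted p = 0.696). A signal for the whole gene cannot separate the long prosurvival product from the short one, which promotes death. Mcl1 encodes a short-lived protein that myeloid cells need to survive. It was at 9.91, 10.18 and 10.02 in the Ppara -/- samples, against 10.26, 9.63 and 9.97 in the Ppara +/+ samples. The Ppara +/+ arrays alone spanned 0.63, more than the 0.27 of the Ppara -/- arrays, and enclosed them. The Mcl1 difference was 0.08 (interval -0.29 to 0.46; limma adjusted p = 0.997). Leaving out Ppara +/+ replicate 1 gave 0.24, whereas leaving out Ppara +/+ replicate 2 gave -0.08, and it was 0.17 without both arrays that stand apart (limma adjusted p = 0.738).

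The 1 measured effector gene was nearly level between the genotypes. Bak1, which encodes the pore-forming protein BAK, was at 9.01, 9.15 and 8.88 in Ppara -/- leukemia, against 9.04, 9.03 and 8.95 in Ppara +/+ leukemia. The Ppara +/+ values lay within the range of the Ppara -/- values, and the difference of 0.0067 had an interval of -0.24 to 0.25 (a signal ratio between 0.848 and 1.19; limma adjusted p = 0.997).

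Of the BH3-only genes, Pmaip1 had the largest difference of all 9 members. Its product NOXA binds MCL1 and promotes the breakdown of that protein, and its transcription is known to respond to p53 and to the integrated stress response. Pmaip1 was at 9.67, 9.68 and 10.16 in the Ppara -/- samples, against 9.44, 8.79 and 9.43 in the Ppara +/+ samples. All 3 Ppara -/- values were above all 3 Ppara +/+ values, and the lowest, Ppara +/+ replicate 2, lay well apart from its group. The difference of 0.62 (SE 0.21, interval 0.15 to 1.08, a signal ratio of 1.53) did not pass over all genes (limma adjusted p = 0.634, unadjusted p = 0.0157; exact two-sided permutation p = 0.1, the lowest that 3 against 3 can give). Of all genes 1.58% had a larger absolute difference and 2.47% a smaller p. With Ppara +/+ replicate 2 left out the difference was 0.40, and with Ppara -/- replicate 3 left out it was 0.45. With both arrays that stand apart left out it was 0.80 (SE 0.26, limma adjusted p = 0.466). The list means of monocyte and macrophage markers were lower in Ppara -/- samples (given above), and the part of these markers in the Pmaip1 difference was not tested.

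Bbc3, like Pmaip1 a p53 target, was nearly level between the genotypes. Its product PUMA binds every prosurvival member. Bbc3 was at 7.39, 7.09 and 7.61 in Ppara -/- leukemia, against 6.97, 7.58 and 7.46 in Ppara +/+ leukemia. Its lowest values were those of Ppara -/- replicate 2 and Ppara +/+ replicate 1, the arrays that stand apart, and the groups overlapped. The difference was 0.03 (interval -0.40 to 0.45), and it was -0.16 without Ppara +/+ replicate 1. Whether the differences of Pmaip1 and Bbc3 are themselves different was not tested.

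Bcl2l11, Bid and Bad had intervals that all include 0. Bcl2l11 encodes BIM, which is induced by FOXO factors when growth factors are withdrawn, and was at 6.94, 7.29 and 7.22 in Ppara -/- samples, against 7.15, 6.95 and 7.46 in Ppara +/+ samples. The lowest value of each group was almost the same and the difference was -0.04 (interval -0.39 to 0.32). Bid, which caspase-8 cleaves to link death receptors with mitochondria, was at 6.75, 6.64 and 6.56 in Ppara -/- samples, against 6.92, 6.70 and 6.69 in Ppara +/+ samples. Only Ppara -/- replicate 1 reached into the Ppara +/+ range, and the Bid difference was -0.12 (interval -0.37 to 0.13). Bad, which survival kinases keep inactive by phosphorylation, was at 6.89, 6.49 and 6.79 in Ppara -/- samples, against 6.35, 6.81 and 6.59 in Ppara +/+ samples. The arrays that stand apart again held the lowest value of each group, and the Bad difference was 0.14 (interval -0.21 to 0.49). The adjusted p of all 3 genes was 0.997 in limma, and their exact permutation p-values were 0.9 for Bcl2l11, 0.4 for Bid and 0.6 for Bad. Without both arrays that stand apart the difference was -0.125 for Bcl2l11, -0.04 for Bid and 0.14 for Bad. With Ppara +/+ replicate 1 alone left out it was -0.045 for Bid and 0.023 for Bad.

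**Figure D2:**
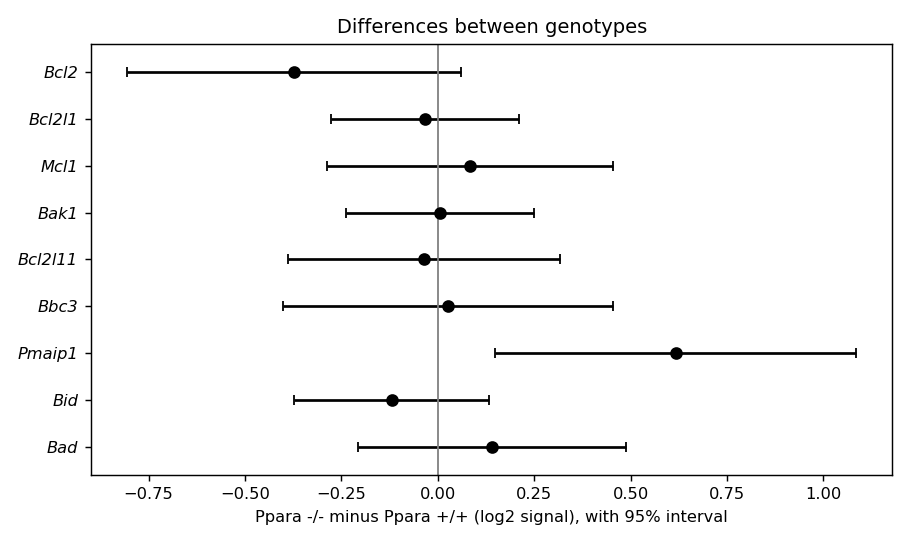
Difference between genotypes for each measured gene (horizontal axis, Ppara -/- minus Ppara +/+, log2 signal); points are limma estimates and bars 95% intervals not adjusted for the number of genes. The Pmaip1 interval (0.15 to 1.08) lies above 0 and the other 8 intervals include 0.

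Replicates differed unequally from gene to gene. The pooled SD within genotypes was 0.33 for Pmaip1, 0.30 for Bcl2 and 0.29 for Bbc3, wider than that of 93.8%, 91.0% and 90.5% of all genes. It was 0.10 for Bcl2l1 and for Bak1 and 0.11 for Bid, and the median over the 9 members was 0.22, beside 0.15 over all genes. Pmaip1, Bcl2 and Bbc3 accordingly had the widest intervals of the 9.

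The rest of the apoptosis pathway was followed through 10 lists with 105 genes, of which 92 were measured. None of the 92 passed in either direction. An unadjusted p under 0.05 was found for 7, 3 of them higher and 4 lower, and the genotypes did not overlap in 8, which is 7.61% and 8.70% of the 92, beside 5.74% and 8.74% of all genes. The median difference over the 92 genes was 0.01, with 48 positive and 44 negative. Without both arrays that stand apart none passed either, and an unadjusted p under 0.05 was found for 10.9% of the 92 and 9.59% of all genes. The other 13 genes of the lists were not analysed here.

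Further members of the family had small differences. Of the other prosurvival genes 5 of 6 were measured (median 0.07), and Bcl2l10, best known in egg cells, was at 4.91 to 5.07 in Ppara -/- and 4.56 to 4.86 in Ppara +/+ samples (difference 0.25; limma adjusted p = 0.9). Bcl2a1a had a difference of -0.21 and Bcl2a1c of 0.11, with all signals of both genes under 4. The Bcl2a1 genes, which neutrophils use to survive, are near-identical copies, so their values are uncertain. Bok, the remaining effector gene, had a difference of 0.06. Of the other BH3-only and BH3-like genes all 10 were measured, with a median of 0.03 and a range of -0.17 to 0.11. Bnip3l, a receptor for the removal of mitochondria, was at the low end (-0.17), while Bcl2l14 was at 0.11 and Bcl2l15 at 0.06.

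Downstream of the pores, genes of the mitochondrial gate and apoptosome had negative differences in 9 of 12 cases, and none passed. Over all genes 12873 of 30743 differences were negative. The median of this list was -0.13, and -0.09 without both arrays that stand apart. Those arrays held both of the highest or both of the lowest values in 9 of the 12 genes, beside 41.5% of all genes. Cycs, which encodes cytochrome c, was at 8.58 to 8.89 in Ppara -/- and 8.69 to 9.40 in Ppara +/+ samples (difference -0.29), and Mtch2, a receptor for cleaved BID in the outer membrane, had a difference of -0.39. Leaving out 1 array brought these as near to 0 as -0.10 for Cycs and -0.17 for Mtch2. Htra2, a mitochondrial protease that blocks inhibitors of apoptosis once released, was at 8.83, 8.94 and 8.68 in Ppara -/- samples, against 8.47, 8.41 and 8.26 in Ppara +/+ samples. The Htra2 groups did not overlap, and its difference of 0.44 (interval 0.18 to 0.69; limma adjusted p = 0.358, unadjusted p = 0.00414) lay between 0.38 and 0.51 with each array left out. Without both arrays that stand apart the Htra2 difference was 0.42 (limma adjusted p = 0.368). With array weights in the fit Htra2 passed (difference 0.48, limma adjusted p = 0.0478). In that fit 277 of 30743 genes passed, against 36 in the main fit.

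Caspases went both ways and none of the 8 measured passed (median -0.04). Casp4, the inflammatory caspase that senses bacterial lipid, was at 7.06 to 7.94 in Ppara -/- and 6.45 to 7.35 in Ppara +/+ samples (difference 0.57, interval -0.03 to 1.18). Casp8, which starts death receptor signalling and cleaves BID, was at 8.92 to 9.53 in Ppara -/- and 9.41 to 10.04 in Ppara +/+ samples (difference -0.40, interval -0.87 to 0.07), and the executioner Casp6 had a difference of -0.13. Leaving out 1 array brought Casp4 as low as 0.34 and Casp8 as near to 0 as -0.20. Inhibitor of apoptosis genes had a median of -0.14 over 9 measured members, 7 of them negative, beside 12873 of 30743 over all genes. Naip5, a sensor of bacterial flagellin in macrophages, was at 8.64, 8.57 and 8.87 in Ppara -/- samples, against 9.56, 9.09 and 9.14 in Ppara +/+ samples (difference -0.57; limma adjusted p = 0.377, unadjusted p = 0.00461; -0.36 without both arrays that stand apart). Naip6 did not overlap between genotypes either (difference -0.39, unadjusted p = 0.0336; -0.20 without that pair). The Naip genes are close copies, so a probe may match several. The list means of monocyte and macrophage markers were lower in Ppara -/- samples, and the part of these markers was not tested. Birc3 had a difference of -0.20.

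Upstream of the BH3-only genes none of the lists held a gene that passed. Death receptor genes had a median of 0.03 over 10, with the receptor Fas at 6.10 to 6.42 in Ppara -/- and 6.0 to 6.04 in Ppara +/+ samples (difference 0.20), its ligand Fasl at a difference of -0.11 and Mlkl, the executor of necroptosis, at 0.17. Transcription factors of BH3-only genes, with regulators of p53 among them, had a median of 0.07 over 14. The FOXO factors differed in sign. Foxo1 had a difference of -0.36 (limma unadjusted p = 0.0337, adjusted p = 0.804) and Foxo3 of -0.20. Foxo4 had a difference of 0.27 (limma unadjusted p = 0.0416, adjusted p = 0.843). Without both arrays that stand apart it was -0.25 for Foxo1 and 0.33 for Foxo4. Stat3 had a difference of 0.24.

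The list written here for MCL1 protein turnover had a median of -0.12 over the 8 of 11 measured. Whether each of its genes acts on the MCL1 protein was not tested. The ubiquitin ligase gene Btrc had a difference of 0.14, the kinase gene Gsk3a of -0.19 and the ubiquitin ligase gene Rnf5 of -0.19. Kinases and anchors of BAD and BIM had a median of 0.02 over 15 of 19 measured. Ywhae, an adaptor of the family that holds phosphorylated BAD in the cytosol, was at 10.08 to 10.43 in Ppara -/- and 10.44 to 10.69 in Ppara +/+ samples (difference -0.31, limma adjusted p = 0.821). Sfn, of the same adaptor family, was at 6.58 to 7.03 in Ppara -/- and 6.27 to 6.56 in Ppara +/+ samples (difference 0.35, limma adjusted p = 0.804), and the dynein light chain gene Dynll2, whose product anchors BMF, had a difference of 0.21.

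**Figure D3:**
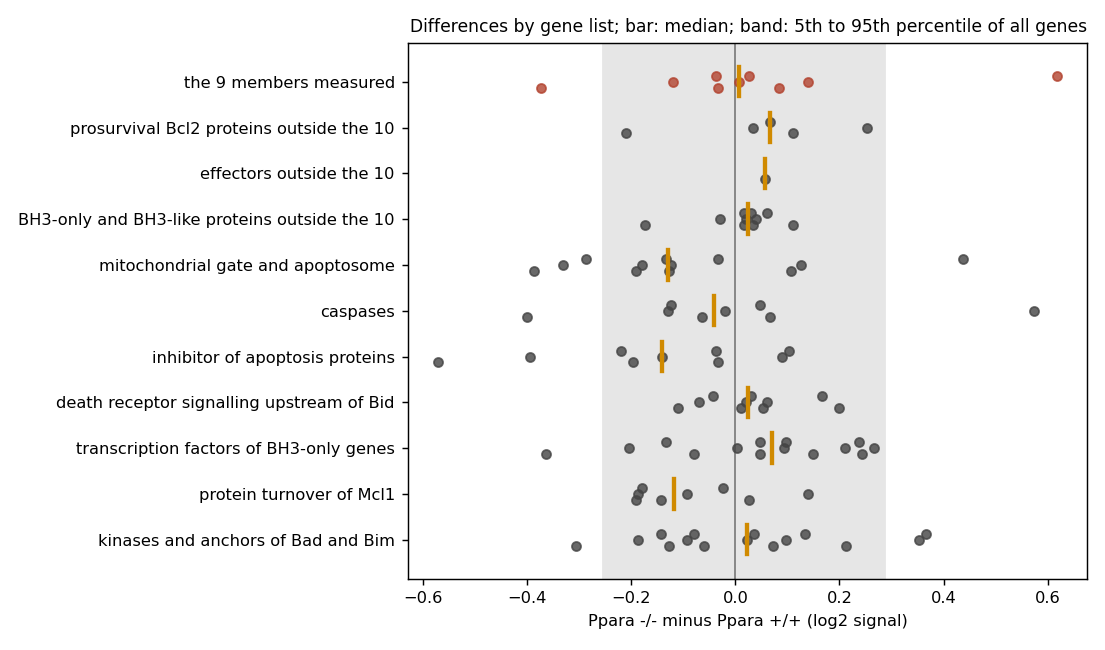
Differences between genotypes (horizontal axis, Ppara -/- minus Ppara +/+, log2 signal) for the 9 measured members in red and for the genes of 10 further apoptosis lists in grey; each point is a gene, the orange bar the list's median and the grey band the 5th to 95th percentile of all genes (-0.25 to 0.29). List medians lie between -0.14 and 0.07.

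**Figure D4:**
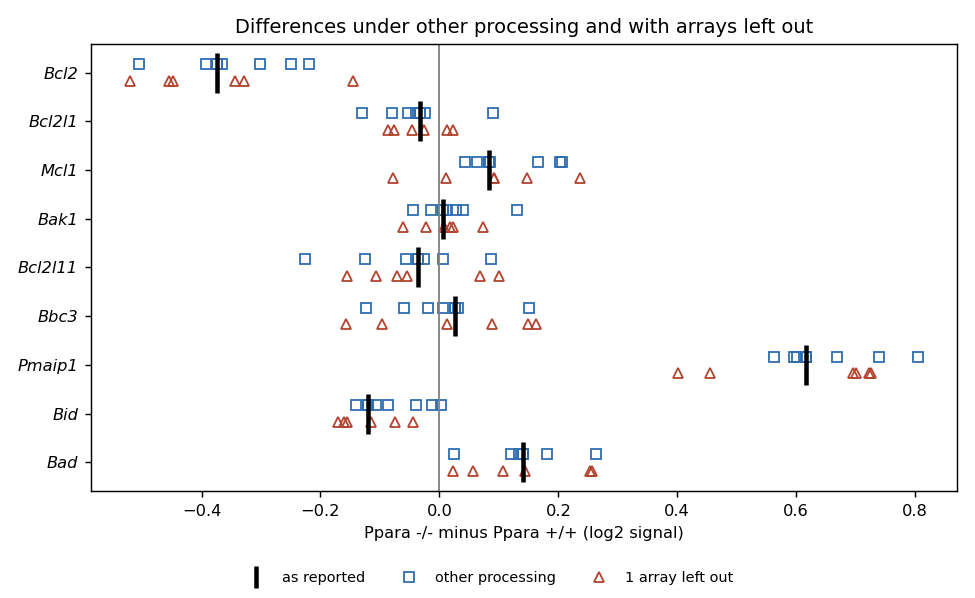
Difference between genotypes for each measured gene (horizontal axis, log2 signal) as reported and in other fits. Squares are other processing, with the fit without both arrays that stand apart among them, and triangles are fits with 1 array left out. Squares for another prior, filter, use of probe sets or replicate block equal the reported value by design. Pmaip1 (0.40 to 0.80) and Bad (0.02 to 0.26) stay above 0 and Bcl2 below 0 (-0.52 to -0.15) in every fit shown. Bcl2l1, Mcl1, Bak1, Bcl2l11, Bbc3 and Bid have fits on both sides of 0.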

How the data were processed

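Sorted MLL-AF9 leukemia cells were profiled on Affymetrix arrays, with groups and replicate numbers taken from the sample titles. The authors deposited a log2 signal for each probe set on each array. RMA and limma are named, per the submitters' processing notes, without version or order. RMA includes quantile normalization, which would hide a change shared by most genes. The array model is uncertain, since the probe set names lack the form of the model in the design text, and the build is not given in the sources used here.

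A platform annotation paired 31216 of 72688 rows with 1 gene, counting repeated and older symbols once, and the highest-mean row stood for each of 30743 genes. The genotypes were fitted in R 4.3.3 with limma 3.58.1 (lmFit, eBayes, two-sided, no covariates, no filter on dim rows), adjusted by Benjamini-Hochberg over all genes at 0.05. Each adjusted p, SE and 95% interval is from that fit unless another fit is named beside it. That fit was also run on simulated data whose noise was independent between arrays, so shared array effects were not part of that check. Single genes also had an exact permutation test in scipy 1.17.1. The members and lists were chosen with earlier results of these data known. All 10 members, Ppara and up to 3 genes per list, those with the smallest p, were named, and any other gene was named after its values were seen. Alternatives changed the prior, the normalization, the filter, the probe sets, the weights, the covariates, the replicate block and the arrays used. Promoter windows are those of RefSeq.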

Additional observations from a re-analysis of the deposited data

How the results depend on the processing

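In 17 other fits no member passed the test; the smallest adjusted p was 0.237. Pmaip1 kept its sign in all 17, from 0.40 to 0.80, with an unadjusted p under 0.05 in 16. Without Ppara -/- replicate 3 that p was 0.0585. The fits that changed only the prior, the filter, the probe sets or the replicate block could not change the difference of any member. Of 147 member values, those of such fits included, 18 changed sign, none larger than 0.16 in size. Centring on the negative-control median raised the median of all genes to 0.14 and gave Bcl2l1 0.09, Bcl2l11 0.087 and Bid 0.0033, all below that shift. Median centring gave Bak1 -0.013. Without the arrays that stand apart Bak1 was -0.045 and Bbc3 -0.02; with negative-control signal as a covariate Bcl2l11 was 0.0058 and Bbc3 -0.12, and array weights gave Bbc3 -0.059. With each array left out Bcl2l1 ranged from -0.087 to 0.023, Mcl1 from -0.078 to 0.24, Bak1 from -0.062 to 0.073, Bcl2l11 from -0.16 to 0.10, Bbc3 from -0.16 to 0.16, Bcl2 from -0.52 to -0.15, Bid from -0.17 to -0.045 and Bad from 0.023 to 0.26. The cause was not tested. A filter at the negative-control 95th percentile left only Mcl1, Bak1 and Pmaip1.

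Over all genes 36 passed (18 higher, 18 lower). The count was 69 with a trended and robust prior, 13 with median centring, 22 with quantile normalization over named genes, 22 with centring on negative controls, 1 of 4421 above the negative-control 95th percentile, 277 with array weights, and 0 without the arrays that stand apart (2947 at an unadjusted p under 0.05 in limma). Leaving out 1 array gave 6 to 36 genes. The lowest count, 6, left out Ppara -/- replicate 1, while 11 passed when Ppara -/- replicate 2, 15 when Ppara -/- replicate 3 and 13 when Ppara +/+ replicate 3 was left out. In the wider lists 0 passed (7 at an unadjusted p under 0.05), and 1, Htra2, with array weights. With the replicate number as a block 12 genes passed and no member did. Same-numbered arrays had deviations correlated at -0.33, -0.47 and 0.11 across genes, and no array correlated best with its own number. The deviations within a group depend on each other, and whether the numbers mark a batch was not tested.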

Other observations

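Ppara -/- replicate 2 and Ppara +/+ replicate 1 are the pair of arrays with the highest negative-control medians. They held both of the highest or both of the lowest values in 4 of the 9 measured members, a count made after the values were seen. They were highest for Mcl1 and Bak1, and lowest for Bbc3 and Bad. The same was true of 41 of the 92 wider apoptosis genes (44.6%) and of 41.5% of all genes, so the share among the members is near that of all genes. Of these arrays 1 belongs to each genotype.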
